A study of Arabidopsis thaliana with 14 samples.

Results

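The type-A response regulator genes ARR16 (listed as RR16, AT2G40670, chromosome 2) and ARR15 (AT1G74890, chromosome 1) and the cytokinin glucosyltransferase genes UGT76C1 (AT5G05870) and UGT76C2 (AT5G05860, both chromosome 5) were followed in Arabidopsis thaliana root tips. These 4 genes were chosen with earlier results of these data known, and were taken by name from the probe set annotation. Each has 1 probe set (266078_at, 262212_at, 250750_at and 250753_at) among the 22810 of the array. They are 4 of 13286 genes that pair with a probe set of their own. All 14 samples, controls included, were primary root tips of 5 mm from 7-day-old seedlings of 1 Arabidopsis line, AtIPT8/pga22 (ecotype Wassilewskija), which the labels describe as carrying a T-DNA knock-out of IPT8. Estradiol is known to induce IPT8 in this line, and the isopentenyltransferase it encodes makes cytokinin. How a knock-out and an inducible IPT8 go together in this line was not tested. Seedlings on plates were covered with liquid medium holding 5 µM 17-beta-estradiol, with medium holding 5 µM trans-zeatin, a natural cytokinin, or with medium alone (control). Treatment lasted 12 h (3 estradiol, 2 trans-zeatin and 3 control samples) or 24 h (2 samples of each). No estradiol-treated sample without the inducible gene is in the series, so effects of estradiol itself and of IPT8 cannot be told apart. The level of IPT8 itself was not analysed here, since the annotation names no probe set for it.

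Cytokinin is perceived by membrane histidine kinases, which pass a phosphate through phosphotransfer proteins to the type-B response regulators, transcription factors in the nucleus. Type-B regulators switch on the genes of the type-A response regulators, small proteins without a DNA-binding domain that dampen the same pathway and so close a negative feedback loop. Cytokinin is removed by oxidases and by glucosyltransferases, and the UGT76C1 and UGT76C2 enzymes attach glucose to a nitrogen of the adenine ring, which gives inactive N-glucosides.

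The values are array signals on a linear scale, each array scaled to a trimmed mean of 100, and the levels of different genes cannot be compared on it. With 2 or 3 arrays in a group, their number limits the precision. Spearman's rho over all probe sets was 0.944 to 0.963 between replicates and 0.917 to 0.963 between arrays of different groups. The actin controls give a 3'/5' signal ratio, a measure of RNA integrity that rises as RNA breaks down, and it was 2.37 to 3.31 in the treated and 3.23 to 4.93 in the control arrays at 12 h, and 3.71 to 4.85 in the treated and 6.24 to 6.44 in the control arrays at 24 h. In another pair of actin probe sets it was 12.9 to 20.5 in treated and 25.2 to 29.5 in control arrays at 12 h, and 24.1 to 33.6 in treated and 18.9 to 25.7 in control arrays at 24 h. In earlier results of these data 1 estradiol array (12 h, replicate 1) and 1 control array (12 h, replicate 3) differed most from the rest of their groups, and changes against control at 12 h are given with and without both. Of 11 listed root markers 0 have a named probe set, so the root tip label could not be checked against them. Of 8 listed leaf markers 1 does, RCA, the activase of the carbon-fixing enzyme Rubisco, with a signal of 135 to 1025 in treated and 64.1 to 323 in control arrays.

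ARR16, known as a cytokinin primary response gene, was low in every control array and rose in all 4 treated groups. At 12 h its signal was 105, 59.2 and 79.4 with estradiol, 66.1 and 76.8 with trans-zeatin, and 5.31, 6.34 and 11.6 in control. At 24 h it was 114 and 96.7 with estradiol, 87.4 and 84.9 with trans-zeatin, and 7.17 and 5.25 in control. All 9 treated arrays lay above all 5 control arrays, with the lowest treated array at 59.2 and the highest control array at 11.6. Of all probe sets tested, 5.45% separated treated from control arrays in either direction. Shares of all probe sets without overlap count both directions here and below.

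ARR15, another type-A gene of the same feedback loop, was also low in every control array and higher in every treated one. At 12 h its signal was 24.2, 30.8 and 16.4 with estradiol, 25.6 and 20 with trans-zeatin, and 4.08, 13.7 and 1.68 in control. At 24 h it was 35.2 and 34 with estradiol, 35.9 and 36.6 with trans-zeatin, and 0.976 and 2.57 in control. The treated and the control arrays did not overlap, but at 12 h the lowest estradiol array (16.4) and the highest control array (13.7) were close together. In bulk root tips, more cells that express a gene and more RNA per cell cannot be told apart.

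**Figure D1:**
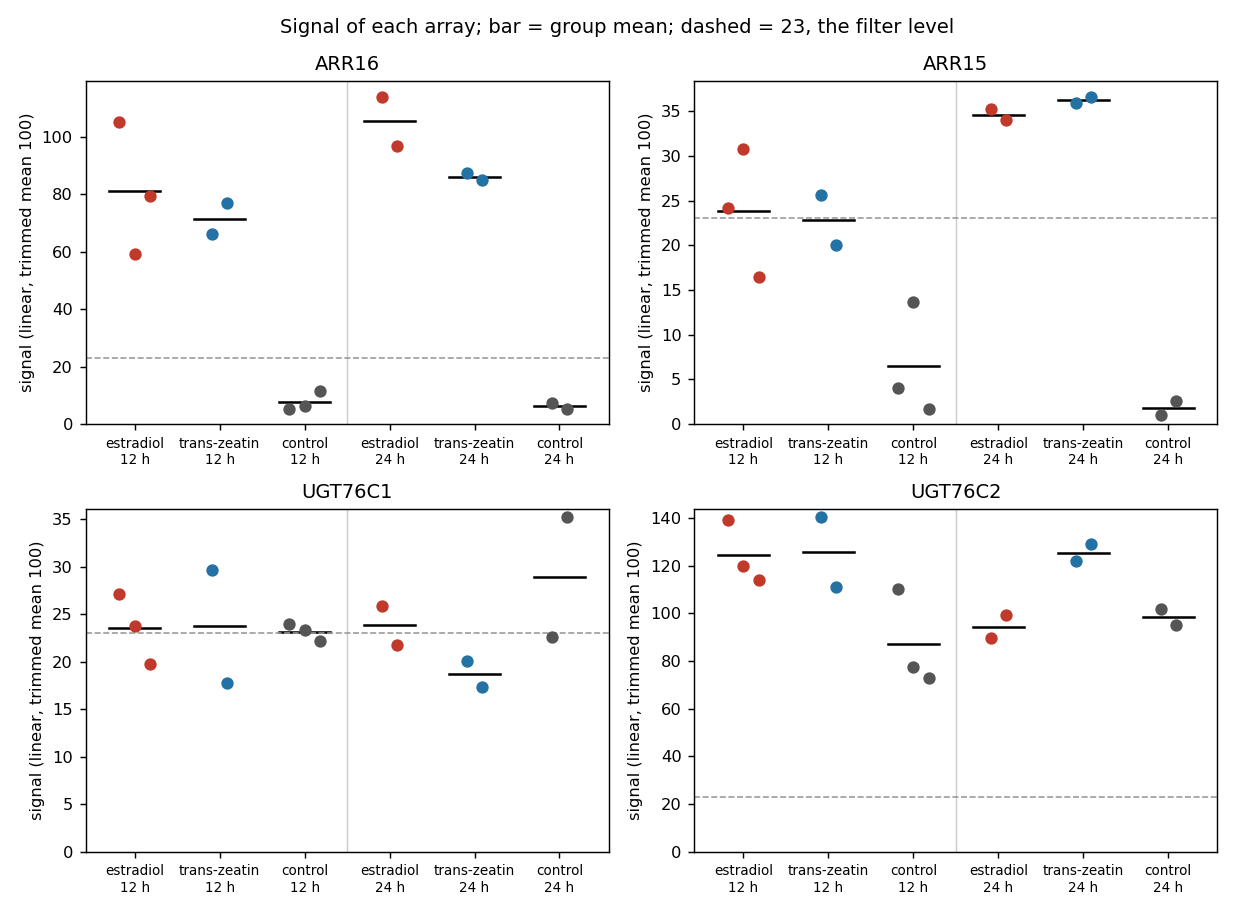
Signal of ARR16, ARR15, UGT76C1 and UGT76C2 on a linear scale (y axis) in each array (points) of the 6 groups (x axis), with group means as bars and the filter level of 23 dashed. All treated arrays of ARR16 and ARR15 lie above all control arrays, while the UGT76C1 and UGT76C2 points of treated and control arrays overlap.

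Changes were tested with limma over all 15605 probe sets that exceeded a signal of 23 on at least 2 arrays, on the log2 of the signal plus 6.3, and the threshold for a call was 0.05 after Benjamini-Hochberg adjustment. Folds on this scale understate the ratio of dim signals. ARR16 and ARR15 passed the filter through treated arrays alone (9 and 7 arrays over 23, and 0 control arrays for either), so their counts, changes and p-values below are descriptions and not support. The size of a change over such dim controls depends on the pseudocount. With a floor of 1 in place of the pseudocount, or the pseudocount at the 40th percentile, the ARR16 changes on the log2 scale were 3.44 and 1.74 at estradiol 12 h, 3.29 and 1.62 at trans-zeatin 12 h, 4.10 and 2.13 at estradiol 24 h, and 3.81 and 1.90 at trans-zeatin 24 h. In the same order of settings those of ARR15 were 2.34 and 0.68, 2.32 and 0.65, 4.43 and 1.22, and 4.50 and 1.26. A call on 2 arrays in a group takes its spread from all groups, and where 1 of them is left out, the lone array is assumed to vary like the arrays of the other groups. UGT76C2 exceeded it on all 14 arrays and UGT76C1 on 7.

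After 12 h of estradiol, ARR16 averaged 81.3 ± 23.1 (SD, n = 3) against 7.74 ± 3.36 in control (n = 3). Its log2 change was 2.63 ± 0.22 (SE, 6.21-fold on this scale, limma adjusted p = 1.9e-05). ARR15 averaged 23.8 ± 7.24 with estradiol and 6.47 ± 6.34 in control, with a log2 change of 1.32 ± 0.34 (2.49-fold, limma adjusted p = 0.04). The value lay just inside the threshold. Of the 4 genes 2 were called higher and 0 lower, against 2.36% of all probe sets called higher. In 3 of 4 the arrays did not overlap, as in 24.8% of all probe sets.

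The ARR15 call at estradiol 12 h ended in 15 of 25 alternative settings. It ended without control 12 h replicate 1 or 3, without estradiol 12 h replicate 1 or 2, without control 24 h replicate 2, and without any one 24 h estradiol or trans-zeatin array, with log2 changes from 1.03 to 1.32 and limma adjusted p from 0.05 (a rounded value above the threshold) to 0.13. Without both of the arrays that differed most from their groups, ARR15 was at 1.01 ± 0.39 (limma adjusted p = 0.22) and ARR16 at 2.63 ± 0.23 (5.8e-05).

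After 12 h of trans-zeatin, ARR16 averaged 71.5 ± 7.58 (n = 2) against 7.74 ± 3.36 in control (n = 3). The log2 change was 2.49 ± 0.25 (5.63-fold, limma adjusted p = 8e-05). ARR15 averaged 22.8 ± 3.94 with trans-zeatin and 6.47 ± 6.34 in control. Its log2 change of 1.29 ± 0.38 (95% interval 0.47 to 2.11) missed the threshold at a limma adjusted p of 0.055. Without control 12 h replicate 2, the control array with the highest ARR15 signal, the change was 1.67 ± 0.35 and passed (limma adjusted p = 0.02). Without control 12 h replicate 3 and estradiol 12 h replicate 1, ARR16 was at 2.68 ± 0.23 (limma adjusted p = 3.4e-05) and ARR15 at 1.01 ± 0.39 (0.15). Here 1 of the 4 genes was called higher, against 3.21% of all probe sets, and in 3 of 4 the arrays did not overlap, against 39.1% of all probe sets.

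After 24 h of estradiol, ARR16 averaged 105 ± 12.3 against 6.21 ± 1.36 in control (n = 2 each). The log2 change was 3.16 ± 0.27 (8.92-fold, limma adjusted p = 1.7e-05). ARR15 averaged 34.6 ± 0.816 with estradiol and 1.77 ± 1.13 in control, and its log2 change was 2.35 ± 0.42 (5.09-fold, limma adjusted p = 0.0056). Of the 4 genes 2 were called higher, against 2.28% of all probe sets, and in 2 of 4 the arrays did not overlap, against 53.1% of all probe sets. The ARR15 call ended without control 24 h replicate 1 (2.20 ± 0.51, limma adjusted p = 0.058) or without estradiol 24 h replicate 2 (2.37 ± 0.54, 0.056).

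After 24 h of trans-zeatin, ARR16 averaged 86.2 ± 1.77 against 6.21 ± 1.36 in control (n = 2 each). Its log2 change was 2.89 ± 0.27 (7.41-fold, limma adjusted p = 3.8e-05). ARR15 averaged 36.2 ± 0.49 with trans-zeatin and 1.77 ± 1.13 in control, with a log2 change of 2.40 ± 0.42 (5.29-fold, limma adjusted p = 0.0048). Of the 4 genes 2 were called higher, against 2.15% of all probe sets. In all 4 the arrays did not overlap, but with 2 arrays in each group that held for 54.2% of all probe sets. The ARR15 call ended without control 24 h replicate 1 (2.26 ± 0.51, limma adjusted p = 0.053) or without trans-zeatin 24 h replicate 1 (2.42 ± 0.54, 0.059).

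Over both times, the 4 treated groups were set against the 2 control groups with each group weighted equally. ARR16 rose by a log2 change of 2.79 ± 0.16 (6.93-fold, limma adjusted p = 5.7e-08) and ARR15 by 1.84 ± 0.24 (3.58-fold, limma adjusted p = 0.00015). Both were among the 7.16% of probe sets called higher. In 2 of the 4 genes the 9 treated arrays did not overlap the 5 control arrays, against 5.45% of all probe sets. The ARR15 call held in all 24 alternative settings in which the gene was tested (limma adjusted p 5.5e-05 to 0.0024).

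**Figure D2:**
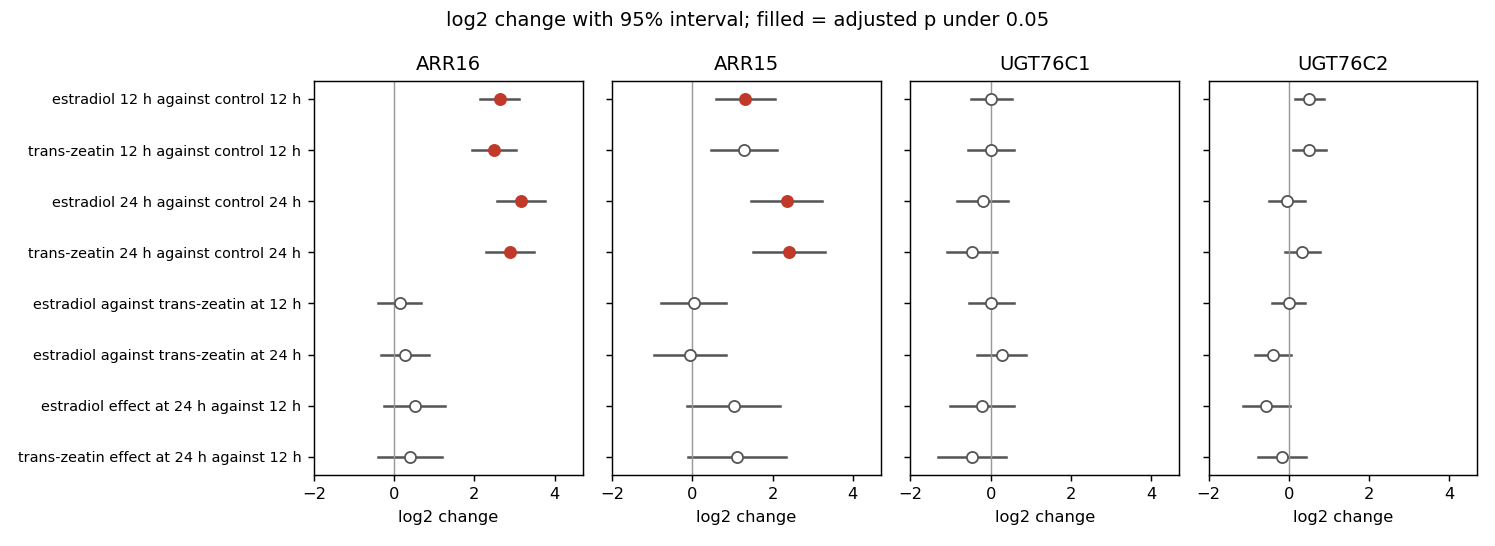
log2 change (x axis) with its 95% interval for the 4 genes in 8 comparisons (y axis), filled where the adjusted p is under 0.05. ARR16 is filled in all 4 comparisons with control and ARR15 in 3, and all intervals between estradiol and trans-zeatin and of the time effects contain 0.

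UGT76C2 was called in none of the 4 comparisons with control. At 12 h its signal was 139, 119.8 and 114 with estradiol, 140.5 and 111 with trans-zeatin, and 110.3, 77.7 and 72.9 in control. All 5 treated arrays at 12 h lay above the 3 control arrays, the closest being 111 (trans-zeatin) and 110.3 (control). The log2 change was 0.50 ± 0.17 with estradiol (95% interval 0.14 to 0.87, limma adjusted p = 0.11) and 0.51 ± 0.19 with trans-zeatin (0.10 to 0.92, limma adjusted p = 0.12), and neither passed. Without control 12 h replicate 3 and estradiol 12 h replicate 1, UGT76C2 was at 0.31 ± 0.19 with estradiol and 0.40 ± 0.19 with trans-zeatin (limma adjusted p = 0.46 and 0.25).

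At 24 h UGT76C2 was at 89.6 and 99.1 with estradiol, 122 and 129 with trans-zeatin, and 102 and 95 in control. The estradiol arrays overlapped the control arrays and the trans-zeatin arrays lay above them. The log2 change was -0.06 ± 0.21 with estradiol (limma adjusted p = 0.91) and 0.33 ± 0.21 with trans-zeatin (limma adjusted p = 0.46). Over both times it was 0.32 ± 0.12 (95% interval 0.07 to 0.58, limma adjusted p = 0.079). It passed with arrays centred on their median (0.38 ± 0.11, limma adjusted p = 0.034) and without control 12 h replicate 1, the control array with the highest UGT76C2 signal (0.41 ± 0.11, 0.029).

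UGT76C1 lay close to the filter level of 23 in every group. At 12 h its signal was 27.1, 23.8 and 19.8 with estradiol, 29.7 and 17.8 with trans-zeatin, and 24, 23.3 and 22.2 in control. At 24 h it was 25.9 and 21.8 with estradiol, 20.1 and 17.3 with trans-zeatin, and 22.6 and 35.2 in control. Treated and control arrays of the same time overlapped except at 24 h, where both trans-zeatin arrays were below both control arrays, and below both estradiol arrays.

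The log2 change of UGT76C1 was 0.01 ± 0.24 with estradiol at 12 h (95% interval -0.49 to 0.52) and 0 ± 0.26 with trans-zeatin at 12 h (-0.57 to 0.57). At 24 h it was -0.20 ± 0.29 with estradiol (-0.83 to 0.42) and -0.47 ± 0.29 with trans-zeatin (-1.10 to 0.15). Without control 12 h replicate 3 and estradiol 12 h replicate 1, the 12 h values were -0.10 ± 0.31 with estradiol and -0.03 ± 0.31 with trans-zeatin. None of the 4 changes was called (limma adjusted p 0.44 to 1). Their intervals leave room for changes of up to 0.57 upward and 1.10 downward on the log2 scale.

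**Figure D3:**
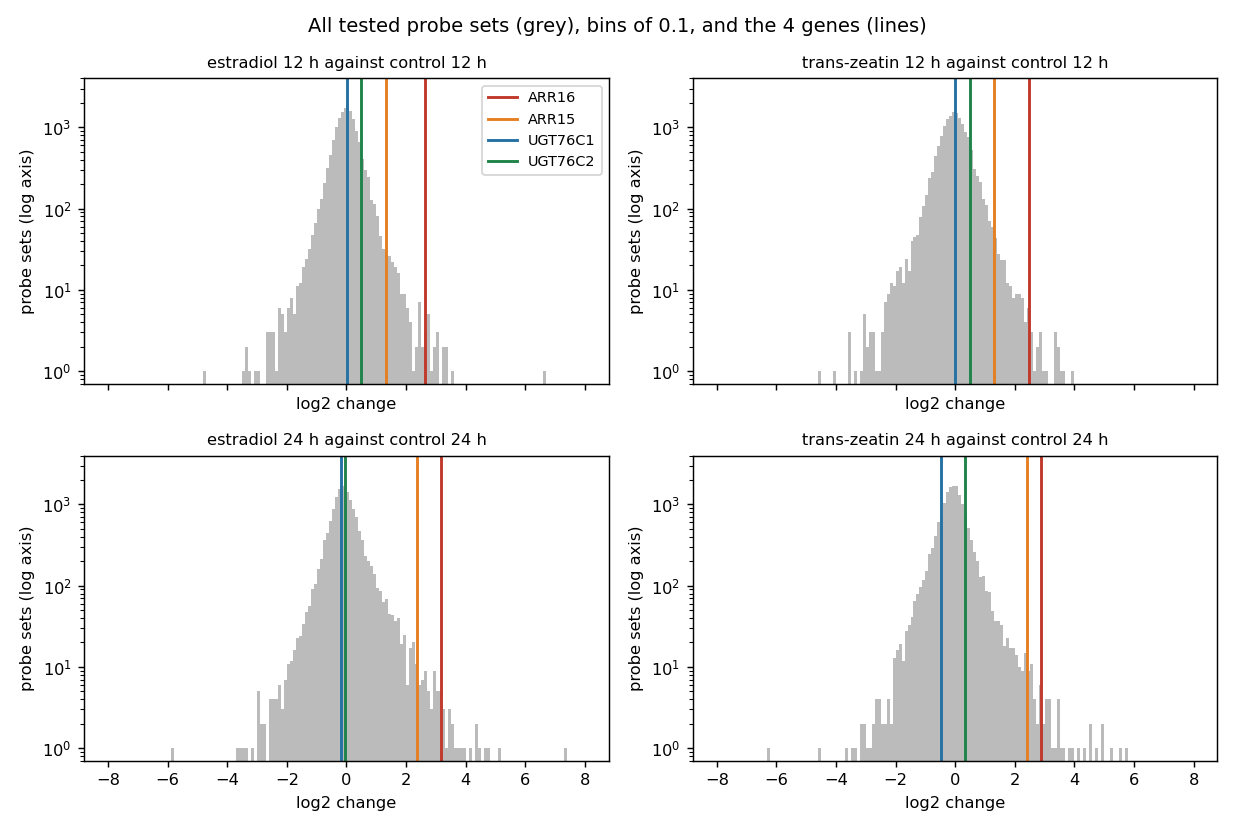
Number of tested probe sets (log y axis) by log2 change (x axis, bins of 0.1) in the 4 comparisons with control, with ARR16, ARR15, UGT76C1 and UGT76C2 as lines. ARR16 lies in the right tail of every panel, and UGT76C1 near the centre or left of it.

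Estradiol and trans-zeatin were compared at the same time and at a nominal 5 µM each, although one is the inducer and the other the hormone. At 12 h the log2 difference, estradiol minus trans-zeatin, was 0.14 (95% interval -0.40 to 0.68) for ARR16, 0.03 (-0.79 to 0.84) for ARR15, 0.01 (-0.55 to 0.58) for UGT76C1 and -0.01 (-0.42 to 0.40) for UGT76C2. At 24 h it was 0.27 (-0.32 to 0.86) for ARR16, -0.06 (-0.95 to 0.84) for ARR15, 0.27 (-0.35 to 0.89) for UGT76C1 and -0.39 (-0.84 to 0.06) for UGT76C2. Of the 4 genes 0 were called at either time by limma (adjusted p 0.89 to 1), and 0 of the 8 had an unadjusted p under 0.05. The background was 0.00641% of probe sets called at 12 h and 0.0449% at 24 h. In all 4 genes the 2 estradiol arrays did not overlap the 2 trans-zeatin arrays at 24 h, against 38.5% of all probe sets. The intervals for ARR15 still allow a difference of 0.95 on the log2 scale between the treatments.

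The treatment effects were larger at 24 h than at 12 h for both type-A genes, but the differences did not pass. The estradiol effect at 24 h minus that at 12 h was 0.52 ± 0.35 for ARR16 and 1.03 ± 0.54 for ARR15 (limma adjusted p = 0.73 and 0.64). The trans-zeatin effect differed by 0.40 ± 0.37 for ARR16 and 1.11 ± 0.57 for ARR15 (limma adjusted p = 0.76 and 0.56). Both ARR15 differences include a lower control at 24 h (mean signal 1.77, against 6.47 at 12 h, log2 difference -0.56 ± 0.38). These control signals are dim, so the ARR15 values do not show that the treated level itself grew with time. For UGT76C2 the estradiol effect was lower at 24 h by a log2 difference of -0.56 ± 0.27 (95% interval -1.14 to 0.02, limma adjusted p = 0.61). For UGT76C1 it was -0.22 ± 0.37 (limma adjusted p = 0.92). The trans-zeatin effect differed by -0.47 ± 0.39 for UGT76C1 and -0.18 ± 0.28 for UGT76C2 (limma adjusted p = 0.73 and 0.87). In these 2 tests 0.0769 and 0% of all probe sets were called, and 0 of the 8 values had an unadjusted p under 0.05.

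Within a treatment, ARR15 was at 34.6 at 24 h and 23.8 at 12 h of estradiol (log2 difference 0.47 ± 0.38), and at 36.2 at 24 h and 22.8 at 12 h of trans-zeatin (0.55 ± 0.42). The arrays of the 2 times did not overlap in either treatment, which held for 24.8% of all probe sets with estradiol and 43.8% with trans-zeatin. ARR16 differed by 0.38 ± 0.25 with estradiol and 0.25 ± 0.27 with trans-zeatin. In the controls the 24 h minus 12 h difference was -0.14 ± 0.25 for ARR16, -0.56 ± 0.38 for ARR15, 0.24 ± 0.26 for UGT76C1 and 0.19 ± 0.19 for UGT76C2. None of the 4 genes was called in any of these 3 comparisons by limma (adjusted p 0.52 to 1; background 0.513% with estradiol, 0.32% with trans-zeatin and 0.468% in control), and 0 of the 12 values had an unadjusted p under 0.05.

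Ordered by mean signal, ARR16 was highest with estradiol at 24 h (105), followed by trans-zeatin at 24 h (86.2), estradiol at 12 h (81.3), trans-zeatin at 12 h (71.5), control at 12 h (7.74) and control at 24 h (6.21). The arrays of neighbouring groups were apart at the first step and at the step between treated and control groups, and overlapped at the other 3 steps. The order of ARR15 was trans-zeatin at 24 h (36.2), estradiol at 24 h (34.6), estradiol at 12 h (23.8), trans-zeatin at 12 h (22.8), control at 12 h (6.47) and control at 24 h (1.77). Its neighbours overlapped between the treatments at 12 h and between the controls.

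UGT76C2 ran from 126 with trans-zeatin at 24 h, 125 with trans-zeatin at 12 h and 124 with estradiol at 12 h to 98.3 in control at 24 h, 94.4 with estradiol at 24 h and 87 in control at 12 h. Its only step without overlap was between estradiol at 12 h and control at 24 h. UGT76C1 was highest in control at 24 h (28.9), lay between 23.2 and 23.9 in 4 groups, and was lowest with trans-zeatin at 24 h (18.7). Neighbours overlapped except at the last step.

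Across the 14 arrays, the log2 values of ARR16 and ARR15 correlated at Pearson's r = 0.888, while within the 9 treated arrays r was 0.263 and within the 5 control arrays -0.327. The arrays fall into separate treated and control groups for both genes, so the r over all arrays describes that split, and no p is given. Between UGT76C1 and UGT76C2 r was -0.048 over the 14 arrays. UGT76C2 was at 0.557 with ARR16 and 0.499 with ARR15, but at -0.427 and -0.188 within the 9 treated arrays. UGT76C1 was at -0.327 with ARR16 and -0.289 with ARR15, and at 0.053 and 0.044 within the treated arrays. These arrays share their scaling, and the 9 treated arrays span 4 groups.

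By Pearson's r of log2 values over the 14 arrays, among 8526 other probe sets that pair with 1 gene, 41 had r over 0.9 with ARR16, 5 with ARR15 and 0 with either UGT76C1 or UGT76C2. The most alike to ARR16 were AT4G35725 (r = 0.979), AT5G59080 (0.974), AT1G28100 (0.972), STR18, a rhodanese-like sulfurtransferase gene (0.968), and the glutaredoxin gene ROXY2 (0.958). Since ARR16 is split between treated and control arrays, a high r over the 14 arrays itself selects genes with that split. Their higher mean signal in treated than in control arrays is therefore no separate result, as for AT4G35725 with 82.8 and 4.45. Within the 9 treated arrays their r with ARR16 ranged from 0.057 for ROXY2 to 0.68 for AT4G35725.

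The genes most alike to ARR15 were AT3G50300 (r = 0.946), AT4G11190 (0.929), AT3G28320 (0.927), AT5G26260 (0.913) and AT1G23340 (0.9). They too were chosen by an r that follows the split between treated and control arrays. Within the 9 treated arrays r with ARR15 was 0.884 for AT3G50300 and 0.486 to 0.589 for the others. AT3G50300 had a mean signal of 215 in treated and 68.2 in control arrays. For UGT76C1 the highest r was 0.84 (AT1G77010), with AT1G71970, AT3G25480, AT4G00420 and AT5G53070 at 0.734 to 0.748. For UGT76C2 it was 0.848 (LHCB4.3, a light-harvesting antenna protein gene), with AT3G10540, AT2G39710, the alkenal reductase gene AER and AT4G16146 at 0.773 to 0.845. LHCB4.3 had a mean signal of 68.8 in treated and 51.8 in control arrays. Ranked by group means instead of single arrays, 1 of the 5 genes stayed among the most alike for ARR16, 2 for ARR15 and 0 for UGT76C1 and UGT76C2.

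UGT76C2 and UGT76C1 lie next to each other on chromosome 5, followed in the TAIR10.1 gene order by UGT76C4 (AT5G05880), UGT76C5 (AT5G05890) and UGT76C3 (AT5G05900). UGT76C4 and UGT76C5 are known as enzymes that glucosylate nicotinate. Of these 3 neighbours 2 were tested, and 0 of 2 were called in any of the 4 comparisons with control. Whether probes of one of these related genes also bind transcripts of another was not tested.

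UGT76C4 had 99.9, 106 and 68.8 with estradiol, 67.7 and 102 with trans-zeatin, and 77.7, 93.1 and 181 in control at 12 h. At 24 h it had 111 and 96.7 with estradiol, 98.4 and 98.3 with trans-zeatin, and 66.1 and 76.4 in control. Its log2 changes were -0.27 ± 0.26 and -0.37 ± 0.29 at 12 h and 0.51 ± 0.32 and 0.43 ± 0.32 at 24 h, with estradiol before trans-zeatin. Without control 12 h replicate 3, the array at 181, the 12 h changes of UGT76C4 were 0.08 ± 0.21 and -0.03 ± 0.24, and without estradiol 12 h replicate 1 as well they were 0.01 ± 0.24 and -0.03 ± 0.24. UGT76C5 was lower in all treated groups by value, with a mean signal of 14.4 to 21.8 in the 4 treated groups and 27.2 and 27.8 in the control groups. Its log2 change over both times was -0.52 ± 0.26 (limma adjusted p = 0.19), and -0.50 ± 0.25 without both of those arrays. UGT76C3 did not pass the filter, with a signal of 0.379 to 1.66 in treated and 1.01 to 3.83 in control arrays.

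**Figure D4:**
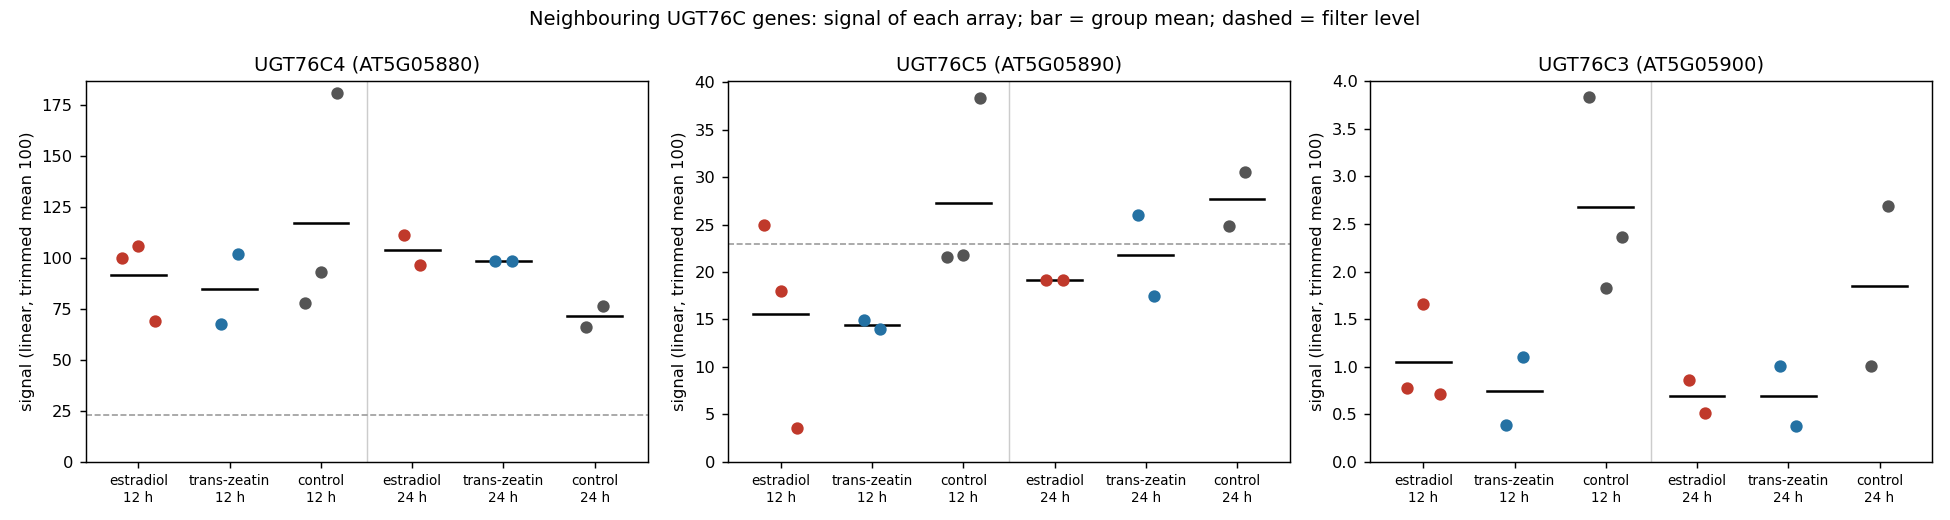
Signal on a linear scale (y axis) of the 3 genes that follow UGT76C2 and UGT76C1 on the chromosome, in each array (points) of the 6 groups (x axis), with group means as bars and the filter level of 23 dashed. Treated and control arrays of UGT76C4 overlap over both times, and all arrays of UGT76C3 lie between 0.379 and 3.83.

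The rest of the cytokinin pathway could hardly be followed. Of 74 genes in 9 lists of receptors, phosphotransfer proteins, type-A and type-B response regulators, response factors, synthesis and activation, oxidases, glucosyltransferases and transport, 7 have a named probe set and 4 passed the filter, which are the 4 genes above. Thus 2 of 10 type-A regulators and 2 of 5 glucosyltransferases were tested, and 0 of 11 type-B regulators, 0 of 3 receptors, 0 of 6 phosphotransfer proteins, 0 of 7 oxidases and 0 of 20 synthesis and activation genes. The median log2 change of the 2 type-A genes was 1.98 with estradiol and 1.89 with trans-zeatin at 12 h, and 2.75 and 2.65 at 24 h. That of the 2 glucosyltransferase genes was 0.26 and 0.26 at 12 h, and -0.13 and -0.07 at 24 h. Over all probe sets tested the median was 0 and -0.03 at 12 h, and -0.09 and -0.06 at 24 h.

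The 3 named genes that did not pass were ARR18 and ARR19, type-B regulators that act as transcriptional activators, and UGT73C1, which attaches glucose to the zeatin side chain. The signal of ARR18 was 1.83 to 10.3 in treated and 1.25 to 6.35 in control arrays. ARR19 was at 0.977 to 9.77 in treated and 0.634 to 14.1 in control arrays. UGT73C1 was at 0.595 to 8.28 in treated and 0.506 to 1.46 in control arrays. All 3 remained below 23 on all 14 arrays, and no fold is given for them.

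The 3'/5' ratio of the actin pair given first was lower in treated than in control arrays at 24 h, and nearly so at 12 h. In the other pair it was lower in treated arrays at 12 h and overlapped at 24 h. With the log2 ratio of the first pair as a covariate, the ARR16 change at 12 h was 2.61 ± 0.32 with estradiol and 2.46 ± 0.36 with trans-zeatin. At 24 h it was 3.13 ± 0.36 and 2.85 ± 0.42 (limma adjusted p 0.00082 to 0.009 over the 4 changes). The ARR15 change with the covariate was 2.03 ± 0.39 and 2.09 ± 0.43 at 12 h and 3.06 ± 0.44 and 3.43 ± 0.52 at 24 h, and all 4 were called (limma adjusted p 0.0037 to 0.045). With the ratio of the other actin pair the ARR15 changes at 12 h were 1.71 ± 0.53 and 1.61 ± 0.51 and did not pass (limma adjusted p = 0.2 and 0.16). At 24 h they were 2.19 ± 0.45 and 2.2 ± 0.47 and passed (limma adjusted p = 0.022 and 0.027). The first pair separated treated from control arrays at 24 h, and the other pair at 12 h. There the adjusted changes extrapolate past any ratio that treated and control arrays share. An effect of RNA integrity on these changes was not tested. The leaf marker RCA was higher at 24 h of estradiol, with a signal of 310.0 and 1025 against 64.1 and 113 in control (log2 change 2.64 ± 0.57, limma adjusted p = 0.019). That call ended without control 24 h replicate 1 (2.26 ± 0.71, limma adjusted p = 0.18) or replicate 2 (3.02 ± 0.71, 0.057), and without estradiol 24 h replicate 2 (1.79 ± 0.60, 0.22). With trans-zeatin at 24 h RCA was at 162 and 233, also above both control arrays (1.13 ± 0.57, limma adjusted p = 0.34). At 12 h RCA was at 563, 178 and 135 with estradiol, 275 and 239.8 with trans-zeatin, and 280.4, 247 and 323 in control.

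The log2 change of RCA at 12 h was -0.23 ± 0.47 with estradiol and -0.13 ± 0.52 with trans-zeatin. Without estradiol 12 h replicate 1, the array at 563, the estradiol value was -0.84 ± 0.38 (limma adjusted p = 0.26). Without control 12 h replicate 3 as well, RCA was at -0.74 ± 0.42 with estradiol and -0.04 ± 0.42 with trans-zeatin. In the controls RCA was lower at 24 h than at 12 h (log2 difference -1.65 ± 0.52, limma adjusted p = 0.17). That difference enters its changes against control at 24 h. Whether the samples held leaf tissue, and whether it affected the values of ARR16, ARR15, UGT76C1 and UGT76C2, was not tested.

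**Figure D5:**
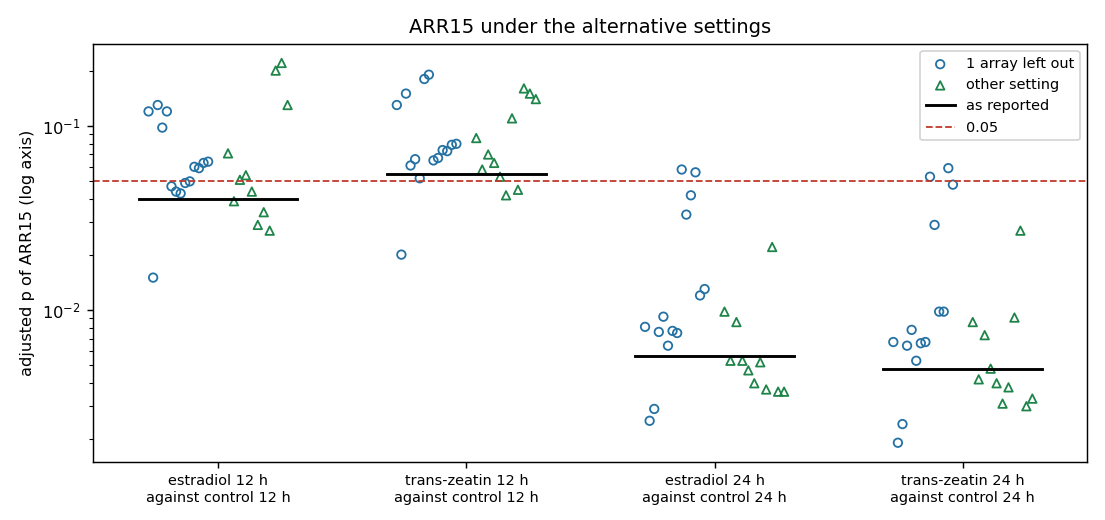
limma adjusted p of ARR15 (log y axis) in the 4 comparisons with control (x axis), as reported (bars), with 1 array left out (circles) and under other settings (triangles), with the threshold of 0.05 dashed. At 12 h the points lie on both sides of the threshold (0.015 to 0.22 with estradiol, 0.02 to 0.19 with trans-zeatin), and at 24 h they range from 0.0025 to 0.058 with estradiol and from 0.0019 to 0.059 with trans-zeatin.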

How the data were processed

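RNA of 14 root tip samples was measured on Affymetrix ATH1 arrays, 1 biotin-labelled sample per array, per the labels. The authors deposited linear signal intensity, made with MAS5 and GCOS per the submitters' processing notes. Each array has a mean of 100 after trimming 2% at each end, so no further normalization was applied.

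Of 22810 probe sets, 13513 pair with 1 gene in the platform annotation, 503 with several and 8794 with none named; 64 control probe sets were not tested. The test used log2(signal + 6.3), a pseudocount at the 20th percentile, where at least 2 arrays exceeded 23 (40th percentile). All 14 arrays entered one limma 3.58.1 fit (R 4.3.3) with a mean for each group and an intensity trend, and 12 two-sided comparisons were adjusted over 15605 probe sets. The method was tested on simulated data, with changes placed at estradiol 12 h only. The changed probe sets were above the filter level on more arrays than ARR16, ARR15 or UGT76C1. That test therefore does not cover genes with dim controls or comparisons with groups of 2 arrays. Nothing says that replicates were separate cultures, so p-values measure the spread between samples.

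The genes and lists were chosen with earlier results of these data known. Named beside the 4 genes are listed cytokinin and UGT76C genes and the 5 probe sets most correlated with each.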

Additional observations from a re-analysis of the deposited data

How the results depend on the processing

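Over 48 changes of the 4 genes and 27 settings, 1122 values kept their direction and their side of the threshold, 19 lost the call, 5 gained it and 54 changed sign. The 4 ARR16 changes against control kept their call in every setting, though these, and ARR15, are called over control signals below the filter level. The 2 called genes at estradiol 12 h became 1 with no pseudocount, no filter, the filter at the 60th percentile or quantile normalization. The same held with the other actin pair (added after the data were seen) and with the 12 h arrays alone. It also held without both control 12 h replicate 3 and estradiol 12 h replicate 1, the arrays that differed most from their groups in earlier results. Where ARR15 was tested in these settings, its limma adjusted p was 0.051 to 0.22. The stricter filter left ARR15 out of the test and so also gave 1 in both 24 h comparisons and over both times. Leaving out single arrays gave 1 to 2 in all 4 comparisons with control. At trans-zeatin 12 h the count was 2, not 1, with no intensity trend or a covariate for the 3'/5' ratio. Same-numbered replicates mostly did not deviate together (r over 0.1 in 3 of 31 pairs, range -0.27 to 0.19). In a group of 2 arrays the deviations mirror each other, so some of the 31 pairs repeat the same r and are not independent checks. With the replicate number as a block 656 probe sets were called at estradiol 12 h, 832 at trans-zeatin 12 h, 498 at estradiol 24 h and 471 at trans-zeatin 24 h. The replicate block changed no call of the 4 genes and turned 2 signs, UGT76C2 between the treatments at 12 h (0.07) and UGT76C1 with estradiol between 24 h and 12 h (-0.04).

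Sign changes concerned changes that were not called. UGT76C1 with trans-zeatin at 12 h was at 0.01 with the larger pseudocount, 0 with quantile normalization, 0.04 centred, and 0.27 and 0.2 with the covariates (single arrays left out -0.29 to 0.29). With estradiol at 12 h it was at -0.01 with quantile normalization and -0.10 without both arrays (-0.07 to 0.11), and at 24 h 0.04 with the 3'/5' ratio (-0.47 to 0.06). Between the treatments at 12 h it was at -0.01 with quantile normalization and with the 3'/5' ratio, -0.04 centred and -0.07 without both arrays (-0.28 to 0.30). Between the times it was at -0.35 and -0.22 with the covariates in estradiol (-0.08 to 0.12), at -0.14 with the 3'/5' ratio in control (-0.03 to 0.50) and at -0.53 to 0.05 in trans-zeatin with single arrays left out; its estradiol effect at 24 h against 12 h was then -0.48 to 0.04. Over both times it was at 0.11 with the 3'/5' ratio. UGT76C2 at estradiol 24 h was at 0.05 centred and 0 with the 3'/5' ratio (-0.12 to 0.01), between the treatments at 12 h at 0.02 with the other actin pair (-0.17 to 0.16), and between the times with trans-zeatin at -0.05 centred, -0.06 and -0.13 with the covariates (-0.16 to 0.17). ARR15 between the treatments at 12 h was at -0.02 with quantile normalization and centred and -0.06 with the 3'/5' ratio (-0.14 to 0.22); with that ratio it was at -0.63 with estradiol and -0.32 with trans-zeatin between the times. Without both arrays ARR16 was at -0.05 between the treatments at 12 h (-0.05 to 0.33) and 0.04 between the controls (-0.27 to 0.04). The causes were not tested. The values of RCA, UGT76C4 and UGT76C5 without single arrays were added after the data were seen.

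Over all probe sets the number called ranged from 100 to 972 at estradiol 12 h (762 as reported), 130 to 1376 at trans-zeatin 12 h (1176), 197 to 1168 at estradiol 24 h (595), 78 to 947 at trans-zeatin 24 h (541) and 246 to 2852 over both times (2596). In each of these 5 it was lowest with 1 of the actin covariates. Dim signal limits ARR15 and UGT76C1: no control array of ARR15 exceeds 13.7.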
